A study of Mus musculus with 6 samples.

Results

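Ctsk, Ckb and Tfrc are genes of the bone-resorbing osteoclast, and their levels were compared between RANKL-induced bone marrow macrophages (BMMs) cultured without and with mogrol. They were taken from the deposited gene table as the rows carrying those symbols, which gave 3 of the 109 genes listed. BMMs are the precursors that fuse into osteoclasts when the cytokine RANKL is added. The cells came from C57BL/6 mice by the labels, C57BL/6J mice 6 weeks old in the study's methods, and all cultures received M-CSF and 30 ng/ml RANKL. The 3 control libraries were made after 5 days of RANKL alone and the 3 mogrol libraries after 5 days of RANKL with 20 μM mogrol, the aglycone of the mogrosides of Siraitia grosvenorii. Cells without RANKL were not analysed here. The study's methods state in general that data came from independent experiments, but no source ties single libraries to separate mice or cultures. The p-values thus rest on the spread between these libraries, which may in part be technical. For the fold changes this spread was estimated with information shared across the genes of the table, not from each gene alone.

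Osteoclasts dissolve bone beneath a sealed membrane by pumping acid onto it and releasing proteases. Cathepsin K, the product of Ctsk, is the cysteine protease that digests collagen in this acid space. Brain-type creatine kinase, the product of Ckb, moves phosphate between phosphocreatine and ADP and so buffers ATP where it is spent quickly, as at the proton pumps of the resorbing membrane. The transferrin receptor, the product of Tfrc, carries iron-loaded transferrin into the cell by endocytosis and supplies the iron of haem and of iron-sulphur proteins in the mitochondria, which multiply as osteoclasts mature.

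Tfrc mRNA is also a classical target of iron control, and matches to its control elements are shown because no other gene searched held more than 1 match. Iron-responsive elements are small hairpins in the 3′ UTR to which the iron regulatory proteins bind when iron is scarce, sparing the mRNA from decay. The search was for an unpaired C, a run of 5 bases, the loop letters CAGTG with any base after them, and a second run of 5 bases able to pair with the first (G-T pairs allowed). It was made on the sense strand in the 3′ UTR of the longest coding transcript of 20896 genes of GENCODE M21 (GRCm38). A match was found in 118 genes, or 0.565% of them. Tfrc had 4 matches in its 3′ UTR of 2458 bases, and it was the only gene of those searched with 2 or more. An element that departs from these letters or pairs would have been missed. Ctsk and Ckb had 0 matches in 3′ UTRs of 440 and 202 bases, which says only that these letters were not found there. The Tfrc elements lie on the plus strand in the 3′ UTR, and the loop is in capitals below.
Tfrc element 1, chr16:32631219-32631247: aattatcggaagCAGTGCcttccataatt
Tfrc element 2, chr16:32631598-32631626: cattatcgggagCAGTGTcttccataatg
Tfrc element 3, chr16:32631663-32631691: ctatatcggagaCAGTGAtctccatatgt
Tfrc element 4, chr16:32631710-32631738: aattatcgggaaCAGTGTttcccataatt

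The start sites of the genes differ in base composition, and their upstream sequence is shown because the 3 genes were lower together. The 250 bases before the RefSeq start site (GRCm38.p6) were read for each gene, taking for Tfrc the RefSeq start nearer to the deposited gene start, 24 bases away. Capitals mark matches on either strand to the TATA box TATAAA, the box CCAAT bound by NF-Y, the GC box GGGCGG, the NFAT core GGAAA, the AP-1 site TGANTCA, the hypoxia response core ACGTG, the E-box CACGTG (which also holds the hypoxia response core), the E-box CATGTG and the PU.1 core GAGGAA.
Ctsk, chr3:95498960-95499209, plus strand: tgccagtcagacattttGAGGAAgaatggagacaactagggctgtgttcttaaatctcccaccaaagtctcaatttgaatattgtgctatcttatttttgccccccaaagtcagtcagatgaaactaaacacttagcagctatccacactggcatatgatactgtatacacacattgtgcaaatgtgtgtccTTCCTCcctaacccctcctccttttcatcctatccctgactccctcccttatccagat
Ckb, chr12:111672339-111672588, minus strand: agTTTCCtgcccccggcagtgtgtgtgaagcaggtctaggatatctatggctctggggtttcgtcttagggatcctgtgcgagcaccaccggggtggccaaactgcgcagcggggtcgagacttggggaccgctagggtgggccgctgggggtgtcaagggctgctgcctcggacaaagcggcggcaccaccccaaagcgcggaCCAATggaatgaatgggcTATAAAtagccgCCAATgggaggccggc
Tfrc, chr16:32608646-32608895, plus strand: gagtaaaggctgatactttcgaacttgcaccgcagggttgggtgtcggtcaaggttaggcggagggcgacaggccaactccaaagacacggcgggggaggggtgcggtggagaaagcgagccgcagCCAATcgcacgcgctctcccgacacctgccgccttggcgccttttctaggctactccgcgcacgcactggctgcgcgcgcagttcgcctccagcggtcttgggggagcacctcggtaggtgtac

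The Ctsk window held 43.2% G and C, less than the median of 52.4% over 32851 RefSeq windows of that length. The windows of Ckb and Tfrc held 62.8% and 64.8%, above the upper quartile of 61.2%. Ckb had a TATA box starting 28 bases before the start site, with CCAAT boxes starting 46 and 16 bases before it, and an NFAT core near the far end. A TATA box was found in 12.4% of all windows, a CCAAT box in 33.8% and an NFAT core in 55.6%. Tfrc had 1 CCAAT box, and Ctsk had 2 PU.1 cores, letters found in 23.3% of windows. The motifs of Tfrc depended on the start chosen: the window before its other RefSeq start, 202 bases from the deposited gene start, held 68% G and C and no CCAAT box, but a GC box and a hypoxia response core. No searched motif was found in all 3 printed windows. Nothing about binding of any factor can be drawn from letters alone.

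The data are reads per gene, and the library totals behind them, recovered from the counts, gene lengths and FPKM values, were 18097882 to 18652439 reads. RPM are reads scaled by the library total. FPKM are also divided by gene length and so allow levels of different genes to be compared. The authors had selected the 109 genes on these same 6 libraries for an adjusted p-value under 0.05 and a change of more than 2-fold, so a test of any of them is not independent evidence that it changed. With edgeR (quasi-likelihood F test on the counts), 62 genes (56.9%) of 109 were called lower in mogrol-treated cells, at an adjusted p-value under 0.05 and a log2 fold change below -1, and 45 (41.3%) were called higher. With scaling by TMM over these genes alone the numbers were 36 lower and 45 higher, and with median-of-ratios scaling 8 lower and 45 higher.

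Ctsk (ENSMUSG00000028111) lies on the plus strand of chr3:95499256-95509362 on GRCm38, where 1 coding transcript of 8 exons is annotated and no other gene overlaps it. The control libraries held 135330, 159381 and 137509 Ctsk reads, against 67446, 69666 and 65959 with mogrol. All 3 mogrol libraries lay below all 3 control libraries, as they did for 58.7% of the genes of the table. For the remaining 41.3% they lay above, so the groups did not overlap for any gene of the table. Control library 2 was the highest and stood apart from the other control libraries, whereas the mogrol libraries were close together. Per length the control libraries had 4832, 5651 and 4994 FPKM, and the mogrol libraries 2411, 2546 and 2375. The level fell from 7801 ± 656 to 3695 ± 136 RPM (SD, n = 3), to 47.4% of the control level. On the log2 scale the change was -1.08 with a standard error of 0.079 (edgeR, adjusted p = 1.1e-34, Benjamini-Hochberg over all 109 genes). When the fold change was tested against 2-fold with edgeR's glmTreat, the adjusted p was 0.0617, so a fall of more than 2-fold was not called.

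Ckb (ENSMUSG00000001270) lies on the minus strand of chr12:111669361-111672338, with 1 coding transcript of 8 exons and 4 transcripts that retain an intron. No annotated gene overlaps it, but the annotation holds 2 processed pseudogenes named for it, Ckb-ps1 and Ckb-ps2, which could share reads with it. Ckb reads numbered 96336, 101123 and 91480 without mogrol, against 46534, 47250 and 46416 with it. The groups did not overlap, as for every gene of the table (58.7% lower, 41.3% higher). Ckb was the steadiest of the 3 genes, with a coefficient of variation of 3.82% without mogrol and 2.05% with it. Its level fell from 5215 ± 199 to 2551 ± 52.3 RPM (SD, n = 3), to 48.9% of the control level. This was a log2 change of -1.03 with a standard error of 0.0789 (edgeR, adjusted p = 1.6e-32). Against 2-fold the adjusted p was 0.153 with glmTreat.

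Tfrc (ENSMUSG00000022797) lies on the plus strand of chr16:32608920-32632794, with 3 coding transcripts, 4 that retain an intron and no overlapping gene. Its main coding transcript has 19 exons. Tfrc reads numbered 65775, 81378 and 69714 without mogrol, against 28928, 28100 and 24700 with it. The groups did not overlap, as for every gene of the table (58.7% lower, 41.3% higher). Tfrc was the most variable of the 3 genes, with a coefficient of variation of 10.5% without mogrol and 8.30% with it. Control library 2 was again the highest, and mogrol library 3 was the lowest. The level fell from 3914 ± 413 to 1487 ± 123 RPM (SD, n = 3), to 38.0% of the control level. This was a log2 change of -1.40 with a standard error of 0.0795 (edgeR, adjusted p = 4.8e-51), and against 2-fold the adjusted p was 3.4e-07 with glmTreat. With limma on log2(FPKM + 0.1) the adjusted p was 1.0e-05, so its size depended on the test used.

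**Figure D1:**
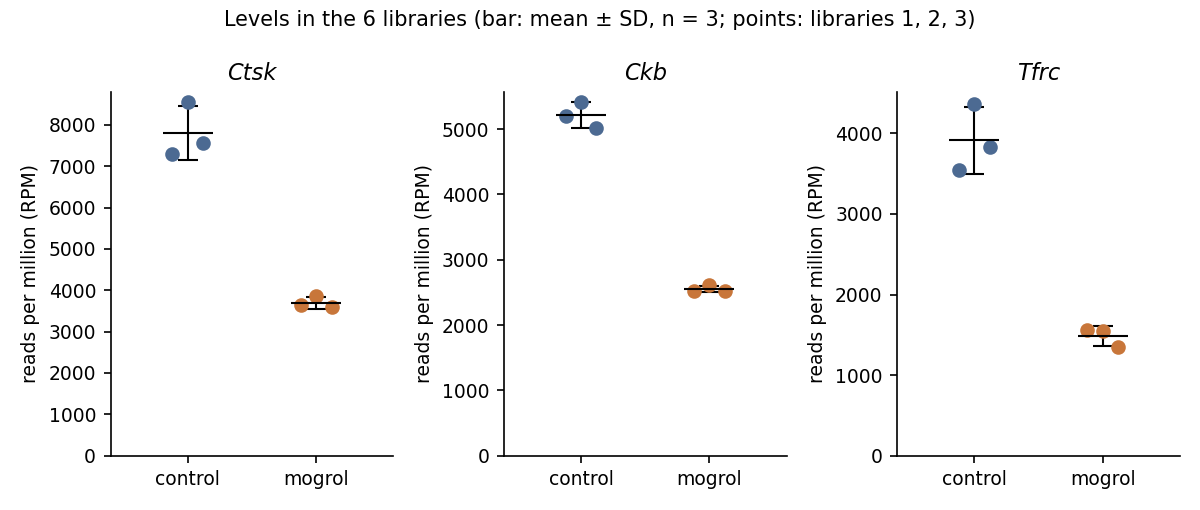
Levels of Ctsk, Ckb and Tfrc in RPM, reads scaled by the library total (vertical axis, from 0) for the control and mogrol libraries (points), with the mean and SD of each group. In each panel the 3 mogrol points lie below the 3 control points, and control library 2 (middle blue point) is the highest point of each panel.

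These changes are far larger than counting error, which for the lowest count, that of Tfrc in mogrol library 3, is 0.636% of the value. The spread between libraries was common to the 3 genes in part. On the log2 scale control library 2 lay above its group mean by 0.135 for Ctsk, 0.057 for Ckb and 0.162 for Tfrc. Mogrol library 2 also lay above its group mean for all 3 genes, by 0.060, 0.034 and 0.066. Without control library 2 the log2 fold changes were -1.01 for Ctsk, -1.0 for Ckb and -1.31 for Tfrc, and each stayed past the limits of the call. The size of the falls depended on how the libraries were scaled. With the size factors implied by the deposited mean counts, the log2 fold changes were -1.15 for Ctsk, -1.10 for Ckb and -1.47 for Tfrc. With TMM over the table alone Ctsk and Ckb were at -0.70 and -0.66, short of 2-fold, and with median-of-ratios scaling at -0.097 and -0.053, while Tfrc was at -0.41, since a table chosen for change has no unchanged genes to scale on.

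In these bulk libraries, fewer osteoclasts, less of each mRNA per osteoclast and less of it from other cells cannot be told apart. Ratios of reads between the 3 genes within a library do not depend on how libraries are scaled, and they show whether the genes fell by unequal amounts. Tfrc had 48.6%, 51.1% and 50.7% as many reads as Ctsk in the control libraries, against 42.9%, 40.3% and 37.4% with mogrol. The groups did not overlap, and the log2 ratio of Tfrc to Ctsk was lower by 0.32 with mogrol, from -1.0 ± 0.0384 to -1.32 ± 0.098 (SD, n = 3), so the difference was -0.32 with a standard error of 0.0608. Relative to Ckb, too, Tfrc was lower in every mogrol library. The log2 ratio of Ckb to Tfrc went from 0.42 ± 0.121 to 0.78 ± 0.116 (SD, n = 3), a difference of 0.36 with a standard error of 0.0965. For both ratios the exact two-sided permutation test gave p = 0.1, the smallest that 3 against 3 libraries allow, and 0.15 after adjustment over the 3 ratios compared.

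The ratio of Ckb to Ctsk did not separate the groups. Ckb had 71.2%, 63.4% and 66.5% as many reads as Ctsk in control libraries, against 69.0%, 67.8% and 70.4% with mogrol. The log2 ratio differed by 0.044 with a standard error of 0.0506, and when any single library was dropped the difference lay between 0.00499 and 0.088 (exact permutation p = 0.5).

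**Figure D2:**
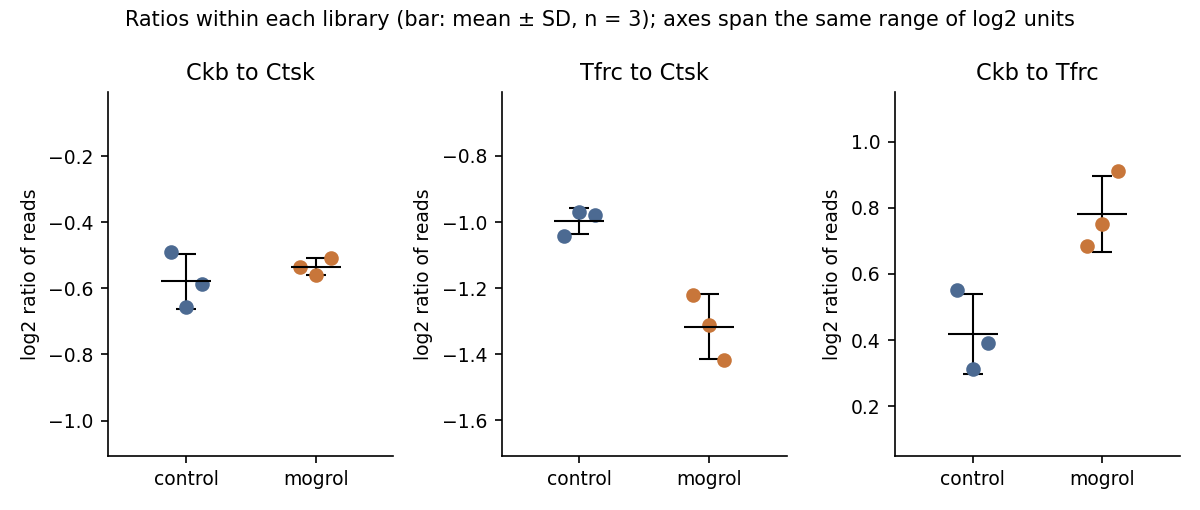
Log2 ratio of reads between pairs of the 3 genes within each library (points), with the mean and SD of each group (n = 3). The 3 vertical axes span the same number of log2 units, and the groups are separate for the ratios with Tfrc and overlap for Ckb to Ctsk.

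The 3 genes were the most abundant of the table. Ctsk ranked 1, Ckb 2 and Tfrc 3 by reads and by FPKM in each of the 6 libraries, and the next gene by mean reads, Lpl, had 15033 reads per library on average against 49766 for Tfrc. Together they held 1.69% ± 0.122 (SD, n = 3) of all reads in control cells, and 0.773% ± 0.0276 with mogrol. This was 79.3% ± 1.18 of the reads of the 109 genes in control cells, and 62.5% ± 1.21 with mogrol. Among the genes with a lower level in mogrol-treated cells, the falls added up to 10990 RPM, of which Ctsk made up 37.4%, Ckb 24.2% and Tfrc 22.1%. The next largest fall, of Col3a1, was 369 RPM. The other 61 lower genes went from 0.309% to 0.129% of the reads, and the 45 higher genes from 0.133% to 0.334%.

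**Figure D3:**
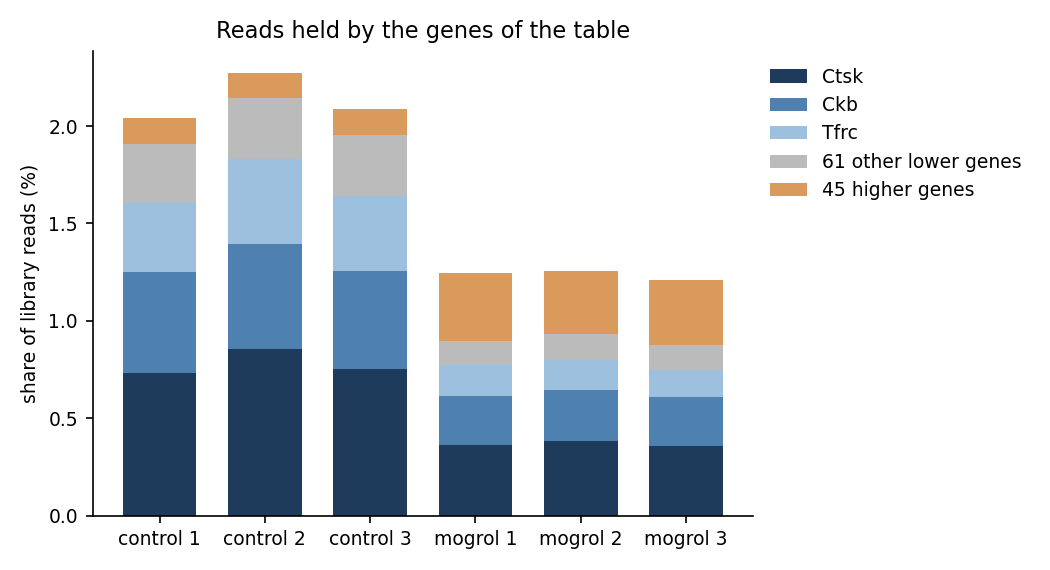
Share of library reads (%, stacked bars from 0) held by Ctsk, Ckb, Tfrc, the 61 other genes that were lower and the 45 genes that were higher, in each of the 6 libraries. The blue segments of the 3 genes make up most of each control bar and shrink in the 3 mogrol bars, while the segment of the higher genes grows.

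The abundance of the 3 genes was not matched by the size of their fold changes. Among the 64 genes with a lower level, counted from the largest decrease, Tfrc was in place 33, Ctsk in place 56 and Ckb in place 61. The median log2 fold change of the 64 genes was -1.41, and that of the 3 genes was -1.08. Since the authors' limit removed every smaller change, places near the end of that order mean a fold change near the limit.

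**Figure D4:**
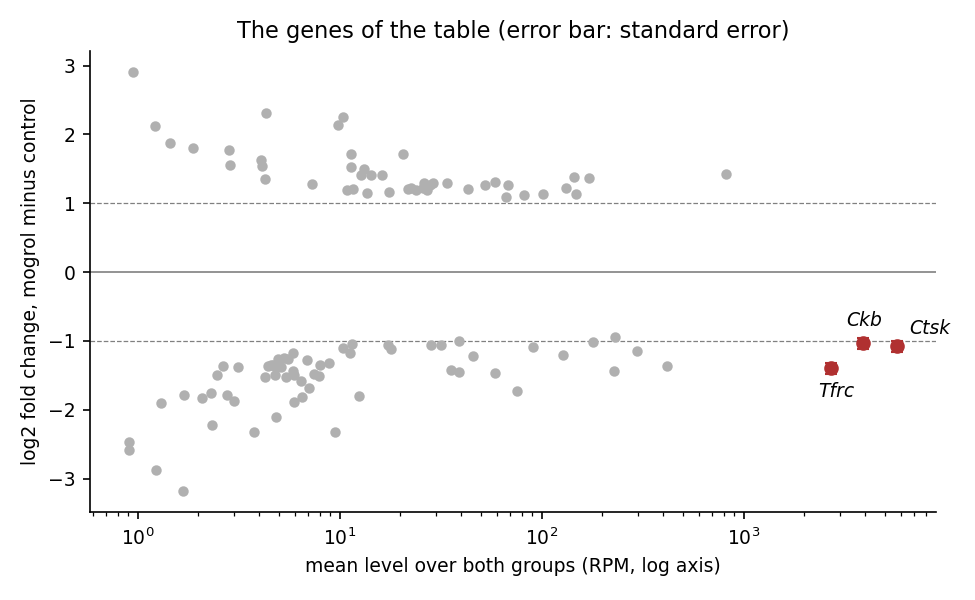
Log2 fold change, mogrol minus control (vertical axis), against the mean level of both groups in RPM (horizontal log axis) for the 109 genes of the table. Dashed lines mark a 2-fold change, the error bars of the 3 named genes are standard errors, and Ctsk, Ckb and Tfrc lie at the far right, with Ctsk and Ckb near the lower dashed line.

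The order of the levels per length was Ctsk, then Ckb, then Tfrc in both groups, and no neighbours in that order overlapped. Ctsk had 5159 ± 434 FPKM without mogrol and 2444 ± 90.3 with it (SD, n = 3). Ckb had 1801 ± 68.9 and 881 ± 18 FPKM, and Tfrc had 633 ± 66.7 and 240.4 ± 20.0. The distances between the genes depended on the length used. The deposited length of Ckb, 2895 bases, is the union of all its annotated exons, including those that retain introns, and is 1.97 times the 1472 bases of its coding transcript. For Tfrc the lengths are 6185 and 4890 bases, and for Ctsk both are 1512. Per length of the main coding transcript, Ckb had 3543 ± 135 FPKM in control cells and Tfrc 800.4 ± 84.4 (SD, n = 3). The ratio of Ctsk to Ckb in control cells was then 1.46 ± 0.0837 in place of 2.86 ± 0.165. The comparison of control with mogrol-treated cells is not touched, since the length of a gene is the same in all libraries.

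**Figure D5:**
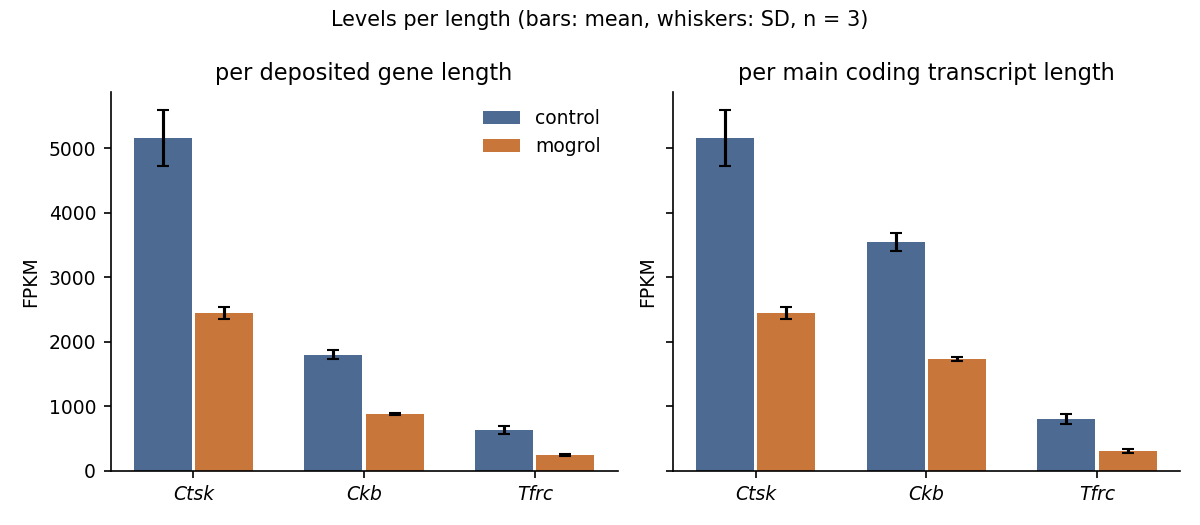
FPKM (bars from 0, mean with SD, n = 3) of Ctsk, Ckb and Tfrc in control and mogrol-treated cells, per deposited gene length (left) and per length of the main coding transcript (right). The order of the genes is the same in both panels, and Ckb stands closer to Ctsk in the right panel.

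The genes whose profiles were most like those of the 3 were found by the root mean square difference of log2 RPM, centred on each gene's mean, over the 6 libraries. For Ctsk these were Tspan7, at 0.0445, Ckb, at 0.0552, and Dennd2a, at 0.0585, against a median of 0.599 over the other genes of the table. For Ckb they were Card14 (0.0512), Galnt6 (0.0548) and Ctsk (0.0552). Tspan7, which encodes a tetraspanin of the cell surface, had a log2 fold change of -1.09, from 123 to 57.8 RPM on average, and so lay near Ctsk in the size of its fall at a much lower level. For Tfrc the closest were 4833415N18Rik (0.0411), Itgb7 (0.0582) and Gzmd (0.097). Itgb7, an integrin subunit, had a log2 fold change of -1.45, from 57.4 to 21 RPM. Tfrc was in place 18 for Ctsk and in place 19 for Ckb. All of these genes come from a table chosen for a difference between the same groups, which brings their profiles together. The distance covers both groups, so it depends on the fold change, and close genes share the size of the fall by the measure itself. The median of 0.599 also includes the 45 genes that rose.

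The surroundings of the 3 genes in their pathways are described from the deposited table alone. Of 17 genes of the resorption machinery (proteases, proton pump, chloride channel, carbonic anhydrase and integrin genes), only Ctsk was among the 109, and it was called lower. Of 16 cysteine cathepsins and their inhibitors, again only Ctsk was listed. Of 14 genes of creatine and phosphotransfer energy supply only Ckb was listed, and of 20 genes of osteoclast differentiation and fusion none was. The remaining genes were not analysed here, so these counts do not say that they were unchanged.

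Among 25 genes of iron uptake, storage and export, Tfrc and Slc11a1 were listed, and they moved in opposite directions. Slc11a1 encodes the metal transporter NRAMP1 of macrophage phagosomes, which moves iron and manganese out of that compartment. It rose from 63.4 ± 6.25 to 139 ± 11.1 RPM (SD, n = 3). The log2 change was 1.14 with a standard error of 0.088 (edgeR, adjusted p = 7.3e-32). Its level in mogrol-treated cells was 37.6 FPKM against 240.4 FPKM for Tfrc.

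The stromal markers found among the 109 genes were lower, like the 3 genes, and the macrophage markers found among them were higher. Nearly every gene of the table was called in one direction or the other, 41.3% higher and 56.9% lower, so the call of a listed marker adds only its direction. Of 16 macrophage markers, 4 were listed and all 4 were called higher, namely Cx3cr1, Fcgr3, Clec7a and Cybb. Their summed level was 171 to 234 RPM without mogrol and 484 to 532 with it, and their median log2 fold change was 1.38. The median over all 109 genes, -1.09, mixes 64 lower with 45 higher genes and so does not show how large a usual rise was. The log2 fold changes of the 45 higher genes ran from 1.10 to 2.91. Cx3cr1, the fractalkine receptor of monocytes and macrophages, went from 80.0 ± 15.8 to 209 ± 14.7 RPM (SD, n = 3). Of 30 stromal and osteoblast lineage markers, 6 were listed, and 5 of them were called lower, namely Col3a1, Col6a2, Postn, Thy1 and Ibsp, with a log2 fold change of -0.99 for the other, Igfbp5. The summed level of the 6 was 1206 to 1270 RPM without mogrol and 486 to 530 with it. Their median log2 fold change was -1.37, against -1.41 over the 64 lower genes of the table. None of the listed markers was at 0, and the other markers of both lists were not analysed here. Col3a1, a fibrillar collagen gene, had a log2 fold change of -1.37 and Postn, the gene of the matrix protein periostin, one of -1.44, sizes near that of Tfrc. The part of the stromal and macrophage RNA in the levels of Ctsk, Ckb and Tfrc was not tested.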

How the data were processed

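RNA-seq had been run on poly(A) or rRNA-depleted RNA for 6 BMM libraries, 3 control and 3 mogrol-treated. The submitters' processing notes name cutadapt 1.9.1, HISAT2 2.0.1, HTSeq 0.6.1 and GRCm38, and the use of strand is not given in the sources used here. The authors deposited raw read counts per gene and library, and FPKM, the counts scaled by gene length and library total. The authors' mean normalized count is a signal over all libraries that rests on DESeq2 size factors. The table also holds the authors' fold changes and p-values, which were not used.

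Samples were grouped by their titles. Library totals were recovered from counts, length and FPKM, with a range of fitting totals at most 71.4 reads wide. Counts were tested with edgeR 4.0.16 (R 4.3.3; estimateDisp, glmQLFit, glmQLFTest) on these totals, without filter or covariate, over all 109 genes. Standard errors were derived from the log2 change and its F value. The fit shares information on spread across the 109 genes, so these errors do not closely follow each gene's own spread. They were 0.079, 0.0789 and 0.0795 for Ctsk, Ckb and Tfrc, whose coefficients of variation without mogrol were 8.41%, 3.82% and 10.5%. The test was first checked on simulated counts of 600 genes. It called 199 of 200 genes changed by 1.5 log2 units and 0 of 400 unchanged genes. That check does not cover changes near the 2-fold limit or genes selected for a change. Each library was counted as 1 sample. Every pair of replicate libraries differed by more than sampling noise (chi-square per degree of freedom 5.24 to 19.6), which does not show that they came from separate cultures. Mean reads per library of a gene ran from 16.7 to 105882, which sets the counting precision. Of the deposited identifiers, 109 matched GENCODE M21, 107 with the same start and end.

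The genes named are the 3 members, the genes of 7 lists found in the table, and the 3 closest profiles of each member. Lpl and Tnip3 fall outside that rule and were chosen once their values had been seen. The members and lists were chosen with earlier results of these data known. Alternatives were other scalings, DESeq2 1.42.0, limma 3.58.1, glmTreat, a filter at 50 reads, the replicate block and each library left out. Other gene lengths were added after seeing the data.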

Additional observations from a re-analysis of the deposited data

How the results depend on the processing

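Scaling set the size of the falls. TMM over the deposited genes alone moved the median log2 fold change by 0.37 and median-of-ratios scaling by 0.98, since both centre on genes chosen for a change. Under TMM the log2 fold changes were -0.70 for Ctsk and -0.66 for Ckb, short of the 2-fold limit, and 36 genes were called lower. Under median-of-ratios they were -0.097, -0.053 and, for Tfrc, -0.41, 8 genes were called lower, and Galnt6 reversed to 0.031. Against 2-fold with glmTreat, Ctsk (-1.08) and Ckb (-1.03) were not called. Limma on log2(FPKM + 1) called 27 genes lower and 25 higher. Its adjusted p-values were 1.3e-07 for Ctsk, 8.2e-08 for Ckb and 5.7e-08 for Tfrc. Limma on log2(FPKM + 0.1) gave 1.3e-05, 1.2e-05 and 1.0e-05, and DESeq2 without shrinkage gave 2.6e-42, 1.2e-52 and 3.2e-52. The size of a p-value thus depended on the test. The size factors implied by the deposited mean counts gave 64 lower and log2 fold changes of -1.15, -1.10 and -1.47. Leaving out 1 library at a time, Ctsk lay between -1.12 and -1.01, Ckb between -1.06 and -1.0, Tfrc between -1.46 and -1.31, and 60 to 63 genes were called lower and 45 higher. The ratio of Tfrc to Ctsk then lay between -0.37 and -0.27 and that of Ckb to Tfrc between 0.30 and 0.43. Of 288 values of the 18 other named genes, 28 lost the call and 5 gained it.

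In the fit with the replicate block the log2 fold changes were -1.08, -1.03 and -1.39, and 62 genes were lower and 45 higher. The deviations of same-numbered libraries correlated at 0.0916, 0.246 and 0.0801 across genes, against a limit of 0.1 that number 2 exceeded. The check thus did not settle whether same-numbered libraries are pairs, and the main fit did not treat them as pairs. Groups of 3 were too small to test for outlying libraries.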

Other observations

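Among the terms that the deposited table assigns to its genes, Tfrc is the only gene of the 109 whose terms name the osteoclast. Besides Tfrc, 1 further gene of the table, Tnip3, had a match to the iron-responsive element in its 3′ UTR, with 1 match. No explanation was tested for these values.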
